A study of Mus musculus with 6 samples.

Results

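Among 45281 probes of an Illumina mouse expression array, 156 were induced by transfected DNA in Trex1-deficient and wild-type cells but were not raised by Trex1 loss alone. They were chosen by their measured values on all 6 arrays of the series. For the choice, each intensity had the median of its array subtracted, was floored at 16 and was put on the log2 scale. A member differed by at least 1.5 between DNA-treated and mock-treated wild-type cells and by at least 1 between DNA-treated and mock-treated Trex1-deficient cells. It also lay less than 0.5 higher in mock-treated Trex1-deficient than in mock-treated wild-type cells, differed by less than 1 with DNA in cells that lack both Trex1 and Sting, and was detected on both of the first DNA-treated arrays. Every comparison among the 6 arrays was therefore used in the choice or shares arrays with it, so all values below are descriptions with no test. The 156 probes name 112 genes through 137 probes, and 19 are not listed with a gene in the annotation used.

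TREX1 is an exonuclease that removes DNA from the cytosol. Cytosolic DNA activates the enzyme cGAS, whose cyclic dinucleotide product binds STING, and STING then activates the transcription factors IRF3 and NF-kB. The interferons made as a result act on the cell and its neighbours through the interferon receptor and STAT factors, which turn on interferon-stimulated genes, and in the absence of TREX1 the cell's own DNA can set off the same pathway. Interferon beta is usually the first type I interferon a fibroblast makes, and the interferon alpha family follows.

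The cells were labelled mouse embryonic fibroblasts of a C57BL6/129Sv background, taken from midgestation embryos and grown in DMEM with 10% FBS. The groups were STKO (deficient in Sting and Trex1), TKO (deficient in Trex1) and WT cells, each transfected with ISD, a synthetic double-stranded DNA, at 4 µg/ml for 6 h, or mock-treated. Each of the 6 groups holds 1 array, which limits the precision and leaves every difference without a replicate check. How many embryos or cultures stand behind an array, and how the alleles were made, is not given in the sources used here. Groups were taken from the sample titles, because the genotype field of the labels goes against them: it gives Sting +/+ for both STKO arrays and TKO ISD, and Sting -/- for TKO mock and both WT arrays.

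The targeted genes were measured first. The Sting1 probe read 113.6 on STKO ISD and 117.5 on STKO mock, 272.1 on TKO ISD and 195.6 on TKO mock, and 500.8 on WT ISD and 224.6 on WT mock. The brighter Trex1 probe read 378.9 on STKO ISD and 257.5 on STKO mock, 848.7 on TKO ISD and 732.8 on TKO mock, and 6386.4 on WT ISD and 1088.3 on WT mock. Sting1 was thus lowest in STKO cells, and Trex1 was lower in STKO and TKO than in WT cells under the same treatment, as the titles have it, but Trex1 signal remained in TKO and STKO cells. Where these probes lie relative to a deletion is not given, so the check is limited. The cell type label was checked against marker genes: of 15 fibroblast genes with a probe, 13 or 14 were detected on each array, with summed intensities of 51075 to 58139 on the STKO arrays, 34726 to 40927 on the TKO arrays and 55317 to 61102 on the WT arrays. Postn was not among those detected. Of 11 muscle genes with a probe, 3 to 6 were detected on an array, with summed intensities of 32098 to 45495. The endothelial, epithelial and neural marker lists each summed to between 735 and 1247 on an array. Of 14 macrophage and leukocyte genes, 13 or 14 were detected on each array, with summed intensities of 203270 to 203490 on the STKO arrays, 184846 to 215122 on the TKO arrays and 163120 to 166820 on the WT arrays. These cultures therefore carry strong macrophage and leukocyte signal beside that of fibroblasts, and the label of fibroblasts does not cover it. One of those markers, Fcer1g, read 31168.1 to 34891.4 on the 4 knockout arrays and was near background in WT cells (76.7 on WT ISD and 61.6 on WT mock). Without it the summed intensities were 171051 to 172290 on the STKO arrays, 153678 to 180231 on the TKO arrays and 163043 to 166759 on the WT arrays. The part of these cells in the results below was not tested. In bulk RNA, fewer cells of a type and less RNA per cell cannot be told apart.

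The interferon alpha genes form the clearest group among the members. There were 9 of them, Ifna1, Ifna2, Ifna4, Ifna5, Ifna6, Ifna11, Ifna14, Ifna15 and Ifnab, through 12 probes. Ifnb1, the interferon beta gene, was not a member because it was raised in TKO mock cells and rose with ISD in STKO cells. The 9 member genes lie beside it in a cluster on mouse chromosome 4. The stretches of their promoters that hold the letters of an interferon-stimulated response element, the kind of site that IRF and interferon-activated STAT complexes bind, are printed because they are the shared sequence of this group. Each is 70 bases on GRCm38.p6, from RefSeq, 5′ to 3′ on the strand of the gene, and starts 20 bases before the capitals. The capitals mark the letters GAAANNGAAA.
Ifna1 (chr4:88849902-88849971, plus strand): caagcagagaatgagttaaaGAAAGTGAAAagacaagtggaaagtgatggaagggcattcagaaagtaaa
Ifna2 (chr4:88683894-88683963, minus strand): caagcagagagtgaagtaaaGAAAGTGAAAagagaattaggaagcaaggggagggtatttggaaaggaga
Ifna4 (chr4:88841678-88841747, plus strand): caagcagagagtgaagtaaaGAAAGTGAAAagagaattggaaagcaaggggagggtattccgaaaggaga
Ifna5 (chr4:88835340-88835409, plus strand): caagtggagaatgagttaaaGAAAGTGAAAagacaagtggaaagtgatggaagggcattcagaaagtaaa
Ifna6 (chr4:88827231-88827300, plus strand): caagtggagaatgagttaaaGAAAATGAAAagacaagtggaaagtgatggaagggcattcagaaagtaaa
Ifnab (chr4:88691345-88691414, minus strand): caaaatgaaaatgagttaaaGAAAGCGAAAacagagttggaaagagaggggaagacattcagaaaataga
Ifna11 (chr4:88819775-88819844, plus strand): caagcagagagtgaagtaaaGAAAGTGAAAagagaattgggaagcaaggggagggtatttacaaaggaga
Ifna14 (chr4:88571914-88571983, minus strand): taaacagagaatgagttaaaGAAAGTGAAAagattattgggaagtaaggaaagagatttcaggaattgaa
Ifna15 (chr4:88558361-88558430, minus strand): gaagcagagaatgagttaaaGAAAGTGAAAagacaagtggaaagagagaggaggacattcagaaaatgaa

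A match of the motif after the same 4 bases was found in 9 of 9 windows. Each stretch was printed at that match, so these 4 bases and the alignment follow from the choice of stretch. In some windows, such as that of Ifna2, a further match lies outside the printed stretch. Any pair of the 9 stretches was identical at 67.1% to 98.6% of positions (median 77.1%), and 34 of the 70 positions were identical in all 9. Mature interferon alpha sequences are also alike, so a probe for one gene may read another, and the levels of single family members are uncertain. The letters GAAANNGAAA had 0 matches in the promoter of Ifnb1, but the search misses any site that departs from these exact letters. Whether promoter letters bear on the array values was not tested. The promoter of Ifnb1 is printed from 130 bases before the annotated start. Capitals mark the letters GGGNNNTTCC of a kappaB site, which NF-kB proteins bind.
Ifnb1 (chr4:88522785-88522924, minus strand): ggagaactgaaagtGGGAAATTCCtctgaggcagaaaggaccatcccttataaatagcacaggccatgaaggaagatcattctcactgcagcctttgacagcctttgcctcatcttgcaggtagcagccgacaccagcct

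Windows of 300 bases, 250 before and 50 after an annotated start, were available for 89 of the 112 member genes (111 windows) and for 32851 starts in all. Motifs were searched on both strands, and a window counted once for each motif. The letters GAAANNGAAA stood in 9 of 9 member interferon alpha windows (100%), in 8 of the other 102 member windows (7.84%) and in 1131 of all 32851 windows (3.44%). Of the 4 interferon alpha windows whose genes are not members, 2 held them, so members are not the only genes of the family with these letters. The letters GGGNNNTTCC stood in 0 of 9 member interferon alpha windows, 6.86% of the other member windows and 5.56% of all windows, and Ifnb1 held them once, 116 bases before its start. Another STAT motif, GAS (TTCNNNGAA), stood in 5 of the 9 interferon alpha windows (55.6%), 10.8% of the other member windows and 8.30% of all windows. The AP-1 motif TGANTCA stood in 10.8% of the other member windows against 7.81% of all windows, and the CRE motif TGACGTCA in none of the 111 member windows against 1.79% of all. A TATA box (TATAAA) stood in 9.80% of the other member windows against 13.6% of all, and the E-box CACGTG in 9.80% against 7.15%. Kcnab1 gave more than 1 of the 8 other member windows that held the ISRE letters. Among the members other than interferons, these letters were held by a higher share of windows than among all windows. Those of GAS, AP-1, kappaB and the E-box lay nearer the share of all windows, slightly above it, and CRE and TATA lay below. The raised set defined below held ISRE in 23.5% of its windows, GAS in 14.7%, AP-1 in 12.7% and kappaB in 9.80%. Those 4 shares exceed those of the other members, so they are not particular to the members. The raised set held the E-box in 0.980%, CRE in 2.94% and TATA in 17.6%. None of these gaps was tested. These are matches of letters, not measured binding.

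**Figure D1:**
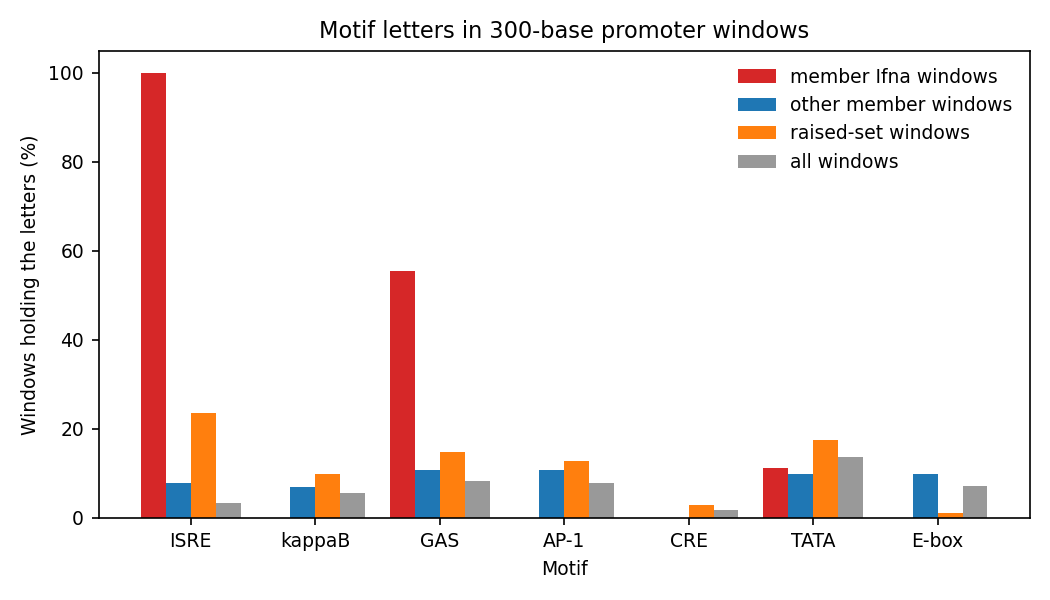
Share of 300-base promoter windows (vertical axis, percent) that hold the letters of each of 7 motifs (horizontal axis), for the 9 member interferon alpha windows, the 102 other member windows, the windows of the raised set defined below and all 32851 windows. The tallest bar is the interferon-stimulated response element (ISRE) in the interferon alpha windows at 100%, against 3.44% of all windows.

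On the arrays, the 12 member interferon alpha probes were not detected until DNA was added. Intensities are in arbitrary units, and the median probe of an array read 76.8 to 85.3. Ifna11 read 72.3 on STKO ISD and 71.0 on STKO mock, 904.6 on TKO ISD and 75.2 on TKO mock, and 4009.9 on WT ISD and 64.3 on WT mock. The brighter Ifna5 probe read 66.2 on STKO ISD and 63.7 on STKO mock, 767.8 on TKO ISD and 74.3 on TKO mock, and 3918.3 on WT ISD and 57.2 on WT mock. Only TKO ISD and WT ISD stood out for both genes, and the other 4 arrays lay at background. Ifna4 read 62.5 on STKO ISD and 61.1 on STKO mock, 609.1 on TKO ISD and 73.1 on TKO mock, and 1116.7 on WT ISD and 57.8 on WT mock. Ifna6 read 69.8 on STKO ISD and 60.9 on STKO mock, 355.4 on TKO ISD and 71.2 on TKO mock, and 2257.7 on WT ISD and 60.4 on WT mock. All 12 probes followed this pattern. None was detected on either mock array of TKO or WT cells or on either STKO array.

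Folds against an undetected signal are lower bounds, set by the lowest level of any detected probe on the dim array or by the probe's own level if higher. By this measure Ifna11 was at least 19.4-fold higher with ISD in TKO cells and at least 86.6-fold in WT cells, and the brighter Ifna5 probe at least 16.4-fold in TKO cells and at least 84.1-fold in WT cells. On the normalized log2 scale the ISD difference of the 12 probes had a median of 3.47 in TKO cells (1.07 to 5.30) and 5.44 in WT cells (2.76 to 7.48). Each of the 12 was lower on TKO ISD than on WT ISD, with log2 differences of -3.04 to -0.80, and 11 of them by 2-fold or more. The largest shortfalls were those of Ifna15, with a log2 difference of -3.04 for 1 probe and -2.82 for the other, and Ifna14, with -2.95. The smallest was that of Ifna4, with -0.80. All 12 stayed lower on TKO ISD under each of 5 other scalings, with 10 or 11 of them by 2-fold or more.

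Interferon beta behaved in another way. Ifnb1, which is no member, read 222.4 on STKO ISD and 80.2 on STKO mock, 23580.6 on TKO ISD and 2388.3 on TKO mock, and 25155.2 on WT ISD and 82.2 on WT mock. It thus rose with ISD in STKO cells too, to a far lower level than in TKO or WT cells. Its TKO mock level exceeded that of WT mock by 6.15 on the log2 scale, while its levels on TKO ISD and WT ISD differed by -0.02. The 12 interferon alpha probes differed between TKO mock and WT mock by -0.34 to 0.33, all of them between undetected signals. In Trex1-deficient cells without added DNA, interferon beta was detected and none of the member interferon alpha probes was. The choice barred probes raised on TKO mock or induced by ISD in STKO cells. No member could thus have shown these rises of Ifnb1, and this contrast is no independent result. Other probes of the same genes were detected without DNA. A further Ifna6 probe was detected on all 6 arrays and read 255.0 on TKO ISD and 178.3 on TKO mock, and 857.8 on WT ISD and 163.3 on WT mock. A further Ifnab probe, also detected on all 6, read 197.8 on TKO ISD and 180.0 on TKO mock, and 280.1 on WT ISD and 202.2 on WT mock. An Ifna1 probe read 107.0 on TKO mock, where it was not detected, and 99.5 on WT mock, where it was. The TKO mock over WT mock differences of these 3 probes were 0.24, -0.19 and 0.12, so none was 2-fold higher, but the absence of signal without DNA holds for the member probes and not for every probe of the family. Other probes gave no detected signal in TKO cells even with DNA: a second probe of Ifna14, 2 of Ifna6 and both of Ifna9 were not detected on TKO ISD (78.8 to 98.4) and were detected on WT ISD (239.2 to 377.5). One Ifna1 probe missed the choice narrowly, at 0.99 in TKO cells against the threshold of 1.

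**Figure D2:**
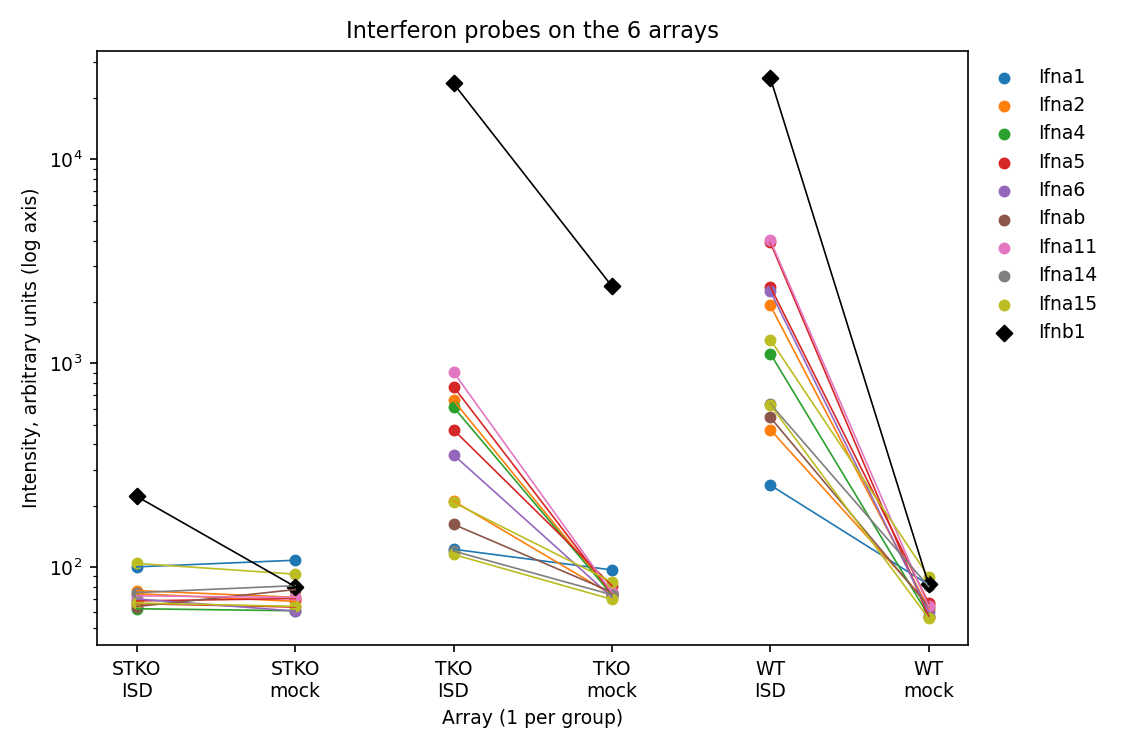
Intensity (arbitrary units, log axis) of the 12 member interferon alpha probes and of Ifnb1 on each of the 6 arrays; each point is 1 probe on 1 array, and lines join ISD to mock within a genotype. The interferon alpha points leave background on TKO ISD and WT ISD alone, reaching 904.6 and 4009.9. Ifnb1 also stands at 2388.3 on TKO mock and rises with ISD in STKO cells.

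Over all 156 members, ISD gave a median log2 difference of 1.62 in TKO cells and 2.08 in WT cells. In TKO cells 147 members were 2-fold or more higher with ISD, against 3.98% of all probes detected on at least 1 array of that pair. In WT cells 156 of 156 were, against 7.46%. Differences of 4-fold or more were found for 36 members in TKO cells and 90 in WT cells. The share of all probes at 4-fold was not counted, and the choice set a higher limit in WT cells. In STKO cells 0 members were 2-fold higher with ISD, against 0.404% of all probes, and their median was 0.08. The 2-fold counts follow from how the members were chosen, as does the loss of the response without STING. The choice set lower limits to the response but not its size beyond them. Of the 156 members, 136 had a smaller ISD difference in TKO than in WT cells, with a median TKO minus WT difference of -0.55. Among all 17327 probes detected on a WT or TKO array, 9568 had a larger ISD difference in TKO cells. The difference was lower by 1 or more for 35 members, against 3.84% of all probes. In the raised set defined below it was lower by 1 or more for 106 of 129 probes, with a median of -1.84. A smaller response in TKO cells is thus not particular to the members. The choice asked more of WT than of TKO cells, which leans this difference the same way.

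**Figure D3:**
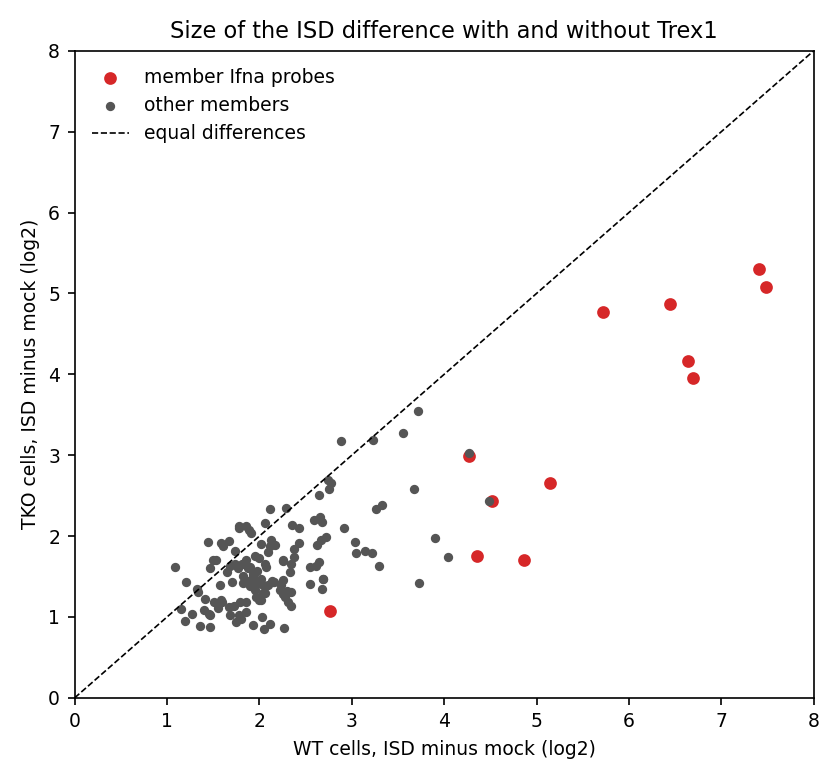
ISD minus mock on the log2 scale in TKO cells (vertical axis) against WT cells (horizontal axis), 1 point per member probe. The 12 interferon alpha probes reach 5.30 in TKO cells and 7.48 in WT cells and lie below the line of equal differences, as do 136 of the 156 members. The choice asked more of WT cells, which leans members below the line. Among all 17327 probes tested, 9568 had a larger difference in TKO cells.

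The level reached with ISD was compared next. On TKO ISD, 28 members were 2-fold or more lower than on WT ISD (4.80% of all probes) and 0 were 2-fold higher (3.45%), with a median of -0.51. The 12 interferon alpha probes gave 11 of the 28. On STKO ISD, 145 members were 2-fold or more lower than on TKO ISD, against 7.78% of all probes, with a median of -1.73. The choice asked for a rise with ISD in TKO cells and limited it in STKO cells, so this gap largely follows from the choice.

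Without added DNA the genotypes lay close together. Against WT mock, 0 members were 2-fold higher on TKO mock (4.44% of all probes), as the choice requires, and 4 were 2-fold lower (5.10%), with a median of 0.15. On STKO mock 1 member, Clec5a, was 2-fold higher than on TKO mock (2.89% of all probes) and 0 were 2-fold lower (4.09%), with a median of -0.18. STKO mock lay 2-fold or more below WT mock for 5 members (2.11% of all probes), with a median of -0.04. For comparison, a raised set was formed with the same rule except that TKO mock had to exceed WT mock by at least 1. It held 129 probes of 96 genes, with medians of -1.86 for STKO mock over TKO mock and 1.85 for TKO mock over WT mock. Its ISD difference had a median of 1.57 in TKO cells, near the 1.62 of the members, and 3.54 in WT cells, above their 2.08. On TKO ISD against WT ISD its median was -0.06, against -0.51 for the members.

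**Figure D4:**
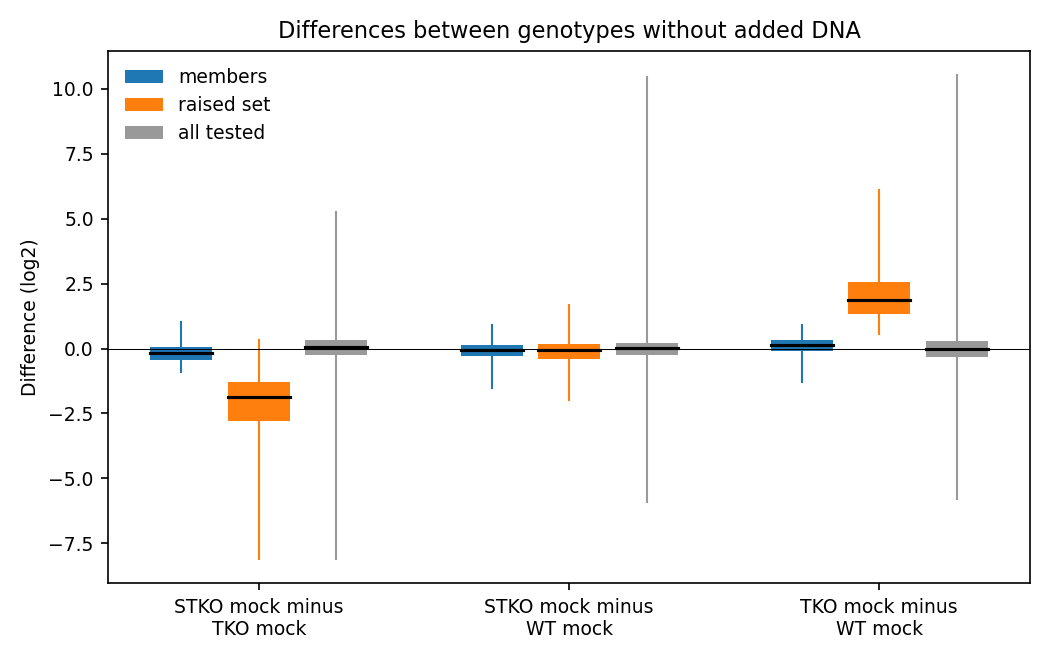
Log2 differences between mock-treated genotypes for the 156 members, the 129 probes of the raised set and all probes detected on at least 1 array of the pair. Boxes span the quartiles, black lines mark the medians and thin lines reach the extremes; the members' medians are -0.18, -0.04 and 0.15 from left to right, where the raised set has -1.86, -0.06 and 1.85.

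How far a member can be called not raised depends on whether it could be read without DNA. The members were dim: their median intensity was 181.35 on TKO ISD and 262.65 on WT ISD, where the raised set had 1152.6 and 1166.6. On TKO mock 65 of the 156 were detected and on WT mock 70. For 85 members neither mock array gave a detected signal, so for them not raised means only that TKO mock stayed below detection. The 64 members detected on both mock arrays had a median TKO mock over WT mock difference of 0.08 and 0 of them were 2-fold higher. These 64 had ISD differences with a median of 1.47 in TKO cells and 2.01 in WT cells.

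Other probes of the same genes bear on this point. Of the member genes, 42 had another probe detected on WT ISD, and for 10 of them such a probe was at least 2-fold up on TKO mock relative to WT mock: Gbp2, Gca, Il15ra, Lacc1, Marchf5, Parp9, Parp10, Peli1, Stx11 and Zfp296. The other probe was the brighter of the pair in 7 of these 10 genes, and the member probe was detected on TKO mock in only 2, Lacc1 and Marchf5. Gbp2, an interferon-inducible GTPase of host defence, shows the disagreement best. Its member probe read 76.5 on STKO ISD and 68.9 on STKO mock, 157.4 on TKO ISD and 88.7 on TKO mock, and 366.2 on WT ISD and 63.1 on WT mock. Its brightest probe read 1411.0 on STKO ISD and 1125.2 on STKO mock, 29833.2 on TKO ISD and 8489.0 on TKO mock, and 37458.7 on WT ISD and 1372.2 on WT mock. At its brightest probe Gbp2 was thus higher without added DNA in TKO cells, by 2.65 on the log2 scale, and at its member probe by 0.53. Counted by the rule's own values, 8 member genes also had a probe in the raised set: Gbp2, Gca, Il15ra, Parp10, Peli1, Pml, Stx11 and Upp1. The same contrast as in Gbp2 was found for Peli1, a ubiquitin ligase of innate immune signalling, whose brightest probe read 2055.9 on TKO mock and 482.5 on WT mock while its member probe read 91.7 on TKO mock and 68.2 on WT mock. The promoter of Gbp2 is shown because it carries the ISRE letters, on the opposite strand, so that the capitals read as their reverse complement.
Gbp2 (chr3:142620533-142620672, plus strand): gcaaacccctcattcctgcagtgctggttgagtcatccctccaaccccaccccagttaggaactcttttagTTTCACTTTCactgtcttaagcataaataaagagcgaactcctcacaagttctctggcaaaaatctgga

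Of 44 cytokine and growth factor genes with a probe, 4 were members (9.09%), Il18, Il33, Lif and Tnfsf4, and of 24 cytokine and death receptor genes 2 were (8.33%), Cd86 and Il15ra. Over all genes with a probe, 0.588% were members. The raised set held 3 genes of each list. Cd86 encodes a ligand with which antigen-presenting cells costimulate T cells through CD28, and all 3 of its probes on the array were members. The brightest read 275.6 on STKO ISD and 280.1 on STKO mock, 850.6 on TKO ISD and 210.9 on TKO mock, and 1607.6 on WT ISD and 308.7 on WT mock. Over the 3 probes the ISD difference was 2.58 to 2.69 in TKO cells and 2.74 to 2.78 in WT cells, and TKO mock over WT mock was -0.69 to -0.28. Il33, an alarmin cytokine of the interleukin 1 family, read 161.1 on STKO ISD and 167.6 on STKO mock, 484.0 on TKO ISD and 112.4 on TKO mock, and 744.5 on WT ISD and 137.1 on WT mock. Its fold was 9.14 in TKO cells and 9.38 in WT cells, close to equal. Cd86 and Il33 were detected on all 6 arrays, so their mock levels are measured.

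Dimmer members were Tnfsf4 (OX40 ligand), Il15ra (the chain that presents interleukin 15), Klrk1 (the activating receptor NKG2D) and Lif, an interleukin 6 family cytokine. None of their member probes was detected on TKO mock or WT mock. Il15ra is, however, 1 of the genes above with brighter probes that were 2-fold higher on TKO mock, the brightest of which read 197.7 on TKO mock and 107.5 on WT mock. Tnfsf4 read 87.0 on STKO ISD and 77.8 on STKO mock, 148.0 on TKO ISD and 87.1 on TKO mock, and 161.8 on WT ISD and 70.0 on WT mock. Of 5 Lif probes 2 were members, and these were slightly brighter with ISD in TKO cells (157.8 and 155.4) than in WT cells (132.7 and 142.1). Il18, another interleukin 1 family cytokine, had a dim member probe at 111.5 on TKO ISD and 181.6 on WT ISD. A brighter Il18 probe was not a member: it read 948.8 on TKO ISD and 747.9 on TKO mock against 2044.5 on WT ISD and 583.5 on WT mock, so its response in TKO cells was below the threshold.

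Of 25 chemokine genes with a probe, 2 were members. Cx3cl1, the membrane-bound chemokine fractalkine, read 204.6 on STKO ISD and 163.8 on STKO mock, 332.4 on TKO ISD and 161.3 on TKO mock, and 466.4 on WT ISD and 151.5 on WT mock. Ccl19, a ligand of CCR7, read 87.2 on STKO ISD and 94.0 on STKO mock, 151.6 on TKO ISD and 97.2 on TKO mock, and 139.3 on WT ISD and 82.3 on WT mock. Cx3cl1 was detected on all 6 arrays, and Ccl19 only with ISD in TKO and WT cells. The raised set held 4 other chemokine genes, Ccl3, Ccl5, Ccl8 and Cxcl9.

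Regulators of signalling and transcription were read mostly above background. Socs3, an inhibitor of JAK kinases that cytokines induce, read 1194.3 on STKO ISD and 880.9 on STKO mock, 3202.6 on TKO ISD and 669.0 on TKO mock, and 6169.2 on WT ISD and 1036.4 on WT mock. Its log2 difference of TKO mock over WT mock was -0.69, and its fold was 5.69 in TKO cells and 6.26 in WT cells. Irf8, a transcription factor of myeloid and dendritic cells, read 841.3 on STKO ISD and 726.9 on STKO mock, 1439.7 on TKO ISD and 701.0 on TKO mock, and 2347.2 on WT ISD and 677.8 on WT mock. The 3 mock arrays of Irf8 lay between 677.8 and 726.9, so its level without added DNA was alike in all genotypes. Crem, a cAMP-responsive transcription factor, had 3 member probes among 7, with ISD differences of 1.00 to 1.79 in TKO cells and 2.03 to 3.22 in WT cells. Dusp16, a phosphatase that inactivates MAP kinases, had 3 member probes among 4, with 1.19 to 1.51 in TKO cells and 1.79 to 2.30 in WT cells. Klf4, a zinc-finger transcription factor, read 121.1 on STKO ISD and 116.1 on STKO mock, 156.9 on TKO ISD and 113.0 on TKO mock, and 204.1 on WT ISD and 108.3 on WT mock. The brightest Klf4 probe, which is no member, read 779.5 on STKO ISD and 357.0 on STKO mock, 704.4 on TKO ISD and 389.0 on TKO mock, and 934.6 on WT ISD and 464.7 on WT mock. Its ISD difference was 1.14 in STKO cells, 1.22 in TKO cells and 1.28 in WT cells, so at that probe Klf4 was also 2-fold higher with DNA in STKO cells.

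Of 47 antiviral effector genes with a probe, 2 were members (4.26%), Parp9 and Lgals9 (galectin 9), while 7 were in the raised set. Over all 19057 genes with a probe, 0.588% were members. The member probes of Parp9 and Lgals9 were not detected on TKO mock or WT mock, but other probes were. The brightest Lgals9 probe read 2094.0 on TKO mock and 1360.1 on WT mock, a log2 difference of 0.58, and another Parp9 probe was detected at 113.3 on TKO mock. Over the 42 effector genes tested between the mock arrays, each by its brightest probe, 34 were 2-fold or more higher in TKO cells, and for the interferon-inducible GTPases 12 of 13 were, against 4.44% of all probes. For the interferons it was 1 of the 4 tested, Ifnb1. Apobec3, a cytidine deaminase that restricts retroviruses, was a member through both of its probes. Its brighter probe read 194.3 on STKO ISD and 161.6 on STKO mock, 357.7 on TKO ISD and 204.6 on TKO mock, and 611.1 on WT ISD and 179.9 on WT mock. The other genes in lists were Tapbpl, a peptide editor of MHC class I whose brighter probe had a TKO mock over WT mock difference of 0.91, Pml, the scaffold of nuclear bodies, and Map2, a microtubule-associated protein from the neural marker list, of which 1 to 3 of 10 genes were detected on an array. Brighter Pml probes, at 3212.1 and 727.4 on TKO ISD and 5133.3 and 1187.9 on WT ISD, had TKO mock over WT mock differences of 0.80 and 0.97.

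Enzymes of inflammation and metabolism followed. Cfb, complement factor B of the alternative pathway, read 97.9 on STKO ISD and 86.6 on STKO mock, 181.3 on TKO ISD and 104.4 on TKO mock, and 536.7 on WT ISD and 82.3 on WT mock. Its TKO minus WT response was -2.30. Taking each gene by its brightest member probe, it was among the 5 lowest with Ifna5, Ifna6, Ifna14 and Ifna15, while the dimmer Scimp probe stood at -2.31. Ptgs2, the cyclooxygenase that prostaglandin synthesis depends on in inflammation, read 102.7 on STKO ISD and 84.6 on STKO mock, 211.4 on TKO ISD and 109.1 on TKO mock, and 246.3 on WT ISD and 101.7 on WT mock. Has2, a hyaluronan synthase, read 191.2 on STKO ISD and 171.0 on STKO mock, 882.9 on TKO ISD and 162.7 on TKO mock, and 1641.0 on WT ISD and 292.7 on WT mock. The TKO mock over WT mock difference of Has2 was -1.09, and its ISD fold was 9.01 in TKO cells and 7.35 in WT cells. Slc2a6, a sugar transporter of the GLUT family, read 927.2 on STKO ISD and 760.6 on STKO mock, 2352.8 on TKO ISD and 732.0 on TKO mock, and 5137.7 on WT ISD and 689.8 on WT mock. Upp1, the uridine phosphorylase, was nearly as high with ISD in TKO cells (366.5 and 270.2 for its 2 member probes) as in WT cells (373.7 and 295.5). A brighter Upp1 probe lay in the raised set and read 897.8 on TKO ISD and 131.6 on TKO mock, and 915.8 on WT ISD and 100.7 on WT mock, with a normalized TKO mock over WT mock difference of 0.65.

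**Figure D5:**
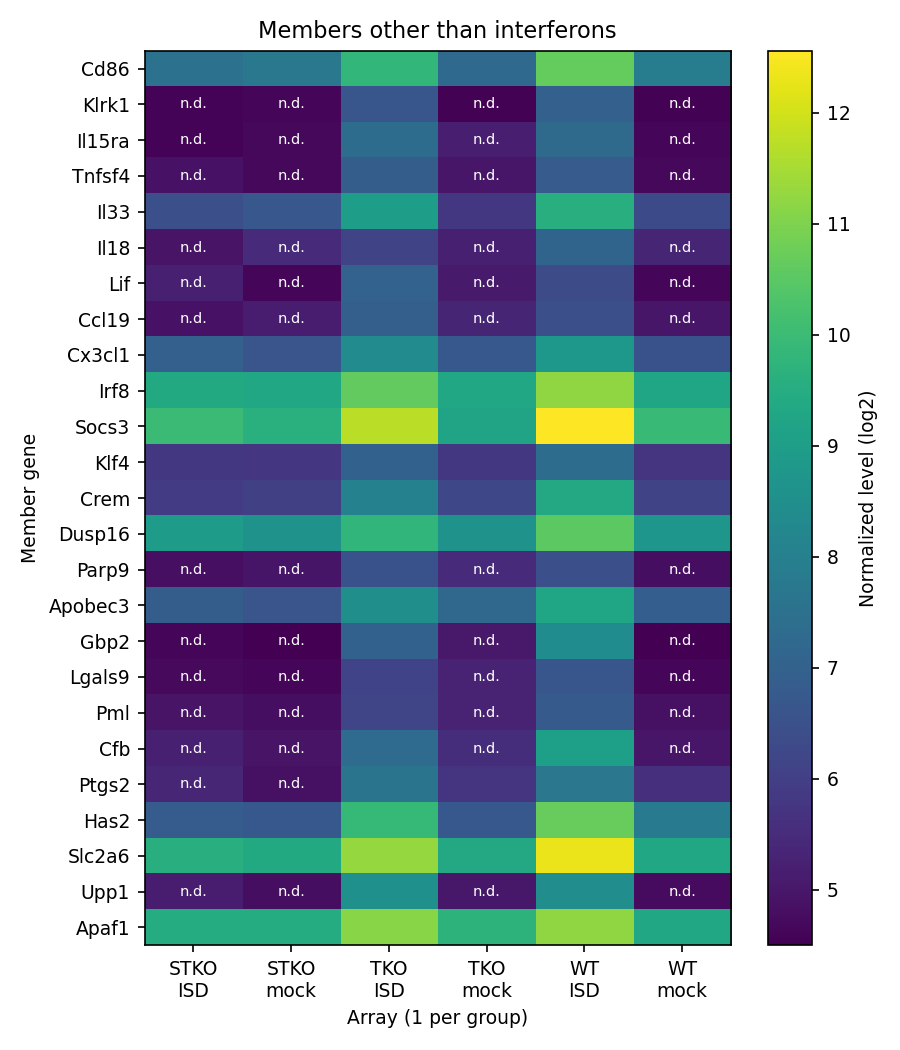
Normalized log2 level of 25 member genes other than interferons (rows, each by its brightest member probe) on the 6 arrays (columns, 1 array per group); n.d. marks a signal that was not detected. The genes are brightest on TKO ISD and WT ISD, and many, such as Tnfsf4 and Lif, were read on those 2 arrays alone.

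Several members encode proteins known from myeloid or lymphoid cells. Of the 14 macrophage and leukocyte marker genes with a probe, however, 0 were members. With ISD, 0 of 14 of these markers were 2-fold higher in TKO cells (median -0.09) and 1 of 13 in WT cells (median -0.15). Which cells gave the signal of the members below was not tested. Scimp, a transmembrane adaptor of antigen-presenting cells, had both of its probes among the members; the brighter read 73.2 on STKO ISD and 71.4 on STKO mock, 186.9 on TKO ISD and 85.7 on TKO mock, and 519.2 on WT ISD and 62.3 on WT mock. P2ry13, a purinergic receptor, read 124.6 on STKO ISD and 133.9 on STKO mock, 297.6 on TKO ISD and 126.6 on TKO mock, and 1115.6 on WT ISD and 213.7 on WT mock. Both were lower on TKO ISD than on WT ISD, with log2 differences of -1.62 for Scimp and -1.93 for P2ry13. Clec5a, a myeloid lectin receptor, departed from the other members on the STKO arrays. It read 230.1 on STKO ISD and 186.1 on STKO mock, 146.3 on TKO ISD and 115.6 on TKO mock, and 263.6 on WT ISD and 120.3 on WT mock. Its 3 other probes were not induced to the thresholds. Rasgrp1, an activator of Ras in lymphocytes, and Timd4, a phosphatidylserine receptor of macrophages, were detected on TKO ISD (204.8 and 147.5) and WT ISD (440.5 and 353.4) and not on the other 4 arrays.

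Probes of 1 gene could be compared where several were members. Marcksl1, a MARCKS-family protein that binds actin, had all 4 of its probes among the members, with ISD differences of 1.43 to 2.23 in TKO cells and 1.61 to 2.66 in WT cells. Mtmr14, a phosphoinositide phosphatase, had 4 of 5, with 1.21 to 2.16 in TKO cells and 1.58 to 2.06 in WT cells. Cemip2, a hyaluronidase of the cell surface, had 3 of 4, with 1.25 to 1.39 in TKO cells and 2.22 to 2.28 in WT cells. The response of Cemip2 was thus smaller in TKO cells on every member probe, and that of Mtmr14 was smaller on 2 of its 4. In all, 17 genes had several member probes, 42 probes together. Among them were Armcx6, Asap3 and Sectm1a, each with 2.

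The brightest member was Polr2g, a subunit of RNA polymerase II, which read 3860.3 on STKO ISD and 3573.9 on STKO mock, 10385.0 on TKO ISD and 5050.7 on TKO mock, and 10977.2 on WT ISD and 3630.5 on WT mock. Katna1, the catalytic subunit of the microtubule-severing enzyme katanin, read 1353.4 on STKO ISD and 1198.9 on STKO mock, 4083.0 on TKO ISD and 1489.8 on TKO mock, and 6323.6 on WT ISD and 1123.0 on WT mock. Apaf1, the core of the apoptosome, read 879.2 on STKO ISD and 811.6 on STKO mock, 2109.8 on TKO ISD and 927.3 on TKO mock, and 2349.7 on WT ISD and 708.1 on WT mock. All 3 were detected on every array, and the log2 difference of TKO ISD over WT ISD was -0.54 for Katna1, 0.02 for Polr2g and -0.07 for Apaf1. Lacc1, an enzyme of purine metabolism in macrophages, and Gcnt2, a glycosyltransferase that branches glycans, were also among the 10 brightest on TKO ISD, at 1408.2 and 1993.6, against 2542.2 and 2247.1 on WT ISD.

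A minority of members responded more in TKO than in WT cells. The TKO minus WT response was above 0 for 20 of the 156, against 9568 of all 17327 probes tested. Among members it reached 0.53 at Hspa4l, a heat shock protein 70 relative, with 0.49 at Map2, 0.34 at Klf8, 0.33 at Aff1 and 0.29 at Has2. In STKO cells the highest ISD differences among members were 0.93 for Aff1, 0.65 for Marcksl1 and for Ralgds, 0.57 for Lif and 0.54 for Fam110c, all short of 2-fold.

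The edges of the choice fell close to other probes. At the WT threshold, Mtmr14 and Crim1 lay inside at 1.54, and Armc8 and Fgf10 outside at 1.49. At the TKO threshold, Dusp16 lay inside at 1.02, and Apaf1's second probe outside at 0.98. At the STKO threshold, Slc7a2 lay inside at 0.97, and Cish outside at 1.04. The mock threshold excluded the most probes, since 187 failed it and no other term, and Crlf3 lay just outside at 0.51.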

How the data were processed

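Biotinylated cRNA from total RNA was hybridised to Illumina arrays, per the labels' protocols. No source used here names the array version or the scanner software. The authors deposited intensity values, neither background-subtracted nor normalized, for 45281 probes on 6 arrays. Beside each intensity the deposited table holds a fraction, labelled a detection p-value per the file headers; it rises with the signal in steps of 1 over 936, so 1 minus it was used as the detection p, and a probe counted as detected below 0.01. The authors also deposited a second table of log2 values centred on each probe's median, used as an alternative; its direction matched the intensities and its normalization between arrays is unknown.

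Intensities were normalized with neqc of limma 3.58.1 in R 4.3.3 (normal-exponential background correction from the detection p, offset 16, quantile normalization, log2), so differences of dim probes are understated. Python 3.11.15 (pandas 2.3.3, numpy 2.4.6, matplotlib 3.10.9) was used for the rest. A 2-fold call needed detection on at least 1 array of the pair. With 1 array per group there is no p-value or error, and the number of arrays limits the precision. The counting was tested on simulated data. The planted members there were brighter without DNA than most real members, so that test does not cover dim probes. GEO's platform annotation names 1 gene for 34885 probes, several for 18 and none for 10378; 34807 matched a RefSeq gene by Entrez ID, and no symbol needed updating. A gene in a list was counted by its brightest probe over the 6 arrays. Promoter sequences are from RefSeq on GRCm38.p6.

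Named members are the 15 genes with the largest WT response, the 10 highest on TKO ISD, all in a gene list, the 5 highest and 5 lowest by TKO minus WT response, the 5 highest STKO differences, those with several member probes and those nearest each threshold. P2ry13, Klrk1, Clec5a, the genes whose probes disagreed and the other probes of member genes were chosen after their values were seen. The members and lists were chosen with earlier results of these data known.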

Additional observations from a re-analysis of the deposited data

How the results depend on the processing

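Of 108 recomputed values, 96 stayed within 1.5 times (a count) or 1.5-fold (a median), and 12 moved further. Many of the 108 restate differences that the choice of members used. The choice of members was sensitive to how dim signals are treated. With a floor of 50, 97 probes qualified, 73 of them among the 156, and with the rule on uncorrected quantile-normalized values 91 qualified, 66 of them among the 156. The rule on neqc values gave 160 probes, 122 of them shared. The median WT response was 1.49 without background correction and 1.48 in the authors' deposited log2 table, against 2.08, and the members 2-fold higher with ISD in TKO cells numbered 84 without background correction and 86 in the authors' deposited log2 table, against 147. Median scaling gave 1 member 2-fold higher with ISD in STKO cells in place of 0. The count 2-fold higher on STKO mock than on TKO mock was 0 without background correction, with an offset of 50 and in the deposited log2 table, 2 on the floored values, and 1 among the 64 members detected on both mock arrays. That last setting, 1 probe per gene and leaving out the interferon alpha probes were added after seeing the data. The median TKO ISD over WT ISD stayed between -0.73 and -0.36. Median scaling moved the WT ISD over mock median of all probes to -0.29, against -0.13. No paired analysis was possible because each group holds 1 array and the labels give no replicate numbers. Leaving out an array would remove a whole group, so it was not run.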
